A study of Rattus norvegicus with 62 samples.

Results

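Prostaglandins are made from arachidonic acid in 3 steps, and 8 rat genes of these steps are described here across the brain regions and drug treatments of the study. The genes were Pla2g4a, Ptgs1, Ptgs2, Ptgds, Ptges, Ptges2, Ptges3 and Ptgis. They were found as the probe sets of the array whose annotation gives 1 gene symbol and whose symbol is 1 of these 8, which gave 10 probe sets of the 31042 on the array that are not controls. Ptges and Ptgs1 had 2 probe sets each and the other 6 genes had 1. In each region 6 of the 10 were bright enough to be tested.

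Cytosolic phospholipase A2 (Pla2g4a) frees arachidonic acid from membrane lipids. The cyclooxygenases Ptgs1 and Ptgs2 turn it into prostaglandin H2, and terminal synthases convert that into prostaglandin D2 (Ptgds), prostaglandin E2 (Ptges, Ptges2, Ptges3) or prostacyclin (Ptgis). Ptgs1 is the isoform that most tissues express steadily, while Ptgs2 is induced by inflammation and, in the brain, is also expressed by excitatory forebrain neurons and induced by synaptic activity.

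The study gave male Wistar rats an antiepileptic drug or a control solution through a gastric tube, 2 times a day for 90 days. The dose was 75 mg/kg for phenytoin, a sodium channel blocker, and 150 mg/kg for levetiracetam, a ligand of the synaptic vesicle protein SV2A. The regions were brainstem, hippocampus and frontal cortex, whose total RNA was measured on single-colour oligonucleotide arrays. Each of the 9 groups had 7 arrays, except control frontal cortex with 6, giving 62 arrays. The labels give no seizure model, age or details of dissection, and do not say whether 1 rat gave all regions. For levetiracetam brainstem arrays 1 and 2 both drugs are named, so Ptgis, the member called in that group, is given with and without them. The differences of the other members in that group include these arrays. Where arrays of a group do not come from separate rats, the p-values measure only the spread between these samples.

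Values below are log2 signals after adding 16 to the deposited intensity and quantile normalization, so differences between small signals are compressed. A difference was called where its adjusted p in limma, taken over all 18626 probe sets brighter than the dimmest 40% of a region, was under 0.05. The markers of neurons lay above that filter for 10 of 10 genes. Array 7 of phenytoin hippocampus stood apart. The log2 of its summed signal of 13 microglia and macrophage markers was 12.45, against 11.26 to 11.51 in the other 6 arrays of its group. For 9 endothelial markers it was 11.78, against 10.37 to 10.69. Oligodendrocyte and myelin markers stood at 14.92, against 13.95 to 14.35, and choroid plexus markers at 11.36, against 9.32 to 9.95. Neuron markers were lowest in that array, at 14.25 against 14.39 to 14.53. Every other marker list was highest there. Technical measures also differed between treatments, by two-sided exact permutation tests adjusted over 9 comparisons each. Under phenytoin the 3'/5' beta-actin log2 ratio was higher than in control by 0.25 in frontal cortex (adjusted p = 0.0455) and by 0.17 in brainstem (adjusted p = 0.0455). Its mean log2 spike-in signal differed from control by -0.34 in hippocampus (adjusted p = 0.0262), where the 3'/5' Gapdh log2 ratio was higher by 0.15 (adjusted p = 0.105). Phenytoin minus levetiracetam in hippocampus was -0.40 for the spike-in signal (exact permutation test, adjusted p = 0.00524). Levetiracetam minus control in brainstem was 0.37 for the spike-in signal (exact permutation test, adjusted p = 0.0507). There the beta-actin ratio differed by 0.12 (exact permutation test, adjusted p = 0.0603). Ptges3 and Ptgs2 are given below with these ratios as covariates.

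The upstream sequences of Ptgs2, Ptges3 and Ptgs1 are shown because Ptgs2 and Ptges3 were the members whose phenytoin differences changed with region, and Ptgs1 is the other cyclooxygenase. Each is the 250 bases before the annotated start in RefSeq's GRCr8 assembly, written 5′ to 3′ on the gene's strand. Ptgs2 lies at chr13:64713813-64714062 (plus strand), Ptges3 at chr7:1075059-1075308 (plus strand) and Ptgs1 at chr3:39981169-39981418 (plus strand). Capitals mark matches on either strand to TATAAA (the TATA box), TGACG (the half-site of the cAMP response element), GGGCGG (the GC box) and CACGTG (an E-box), none of which overlap here. These motifs were chosen with the sequences in view.
Ptgs2: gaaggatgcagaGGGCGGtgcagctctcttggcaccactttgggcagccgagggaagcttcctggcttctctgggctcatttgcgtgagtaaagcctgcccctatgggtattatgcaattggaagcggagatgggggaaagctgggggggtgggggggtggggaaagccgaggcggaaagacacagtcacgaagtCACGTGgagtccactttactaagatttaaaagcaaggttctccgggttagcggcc
Ptges3: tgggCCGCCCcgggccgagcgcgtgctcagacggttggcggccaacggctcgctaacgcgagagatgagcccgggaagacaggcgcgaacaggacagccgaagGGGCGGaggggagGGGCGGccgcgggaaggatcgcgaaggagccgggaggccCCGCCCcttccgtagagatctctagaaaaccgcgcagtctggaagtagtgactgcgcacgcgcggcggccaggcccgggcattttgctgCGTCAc
Ptgs1: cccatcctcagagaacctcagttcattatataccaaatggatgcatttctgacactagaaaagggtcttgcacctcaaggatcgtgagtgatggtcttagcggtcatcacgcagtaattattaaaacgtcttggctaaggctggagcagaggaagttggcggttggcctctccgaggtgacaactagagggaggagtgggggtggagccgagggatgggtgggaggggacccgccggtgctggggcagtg

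Ptgs2 held 1 GC box and 1 E-box, at bases -55 to -50 from the start. The E-box occurs in 5.59% and the GC box in 30.5% of the 33469 upstream windows of this length in the table. Ptges3 held 4 GC boxes and 1 TGACG match, which 18.2% of windows hold on either strand. Ptgs1 held no match to the 4 motifs. TATAAA, which 12.9% of windows hold, was found in none of these 3. These matches describe letters in the sequence, and no binding was measured.

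Ptgs2 in frontal cortex was the largest drug difference of the family. In control rats its log2 signal ran from 6.15 to 7.08 with a median of 6.53 (6 arrays). Under phenytoin it ran from 7.68 to 8.77 with a median of 8.29 (7 arrays), and under levetiracetam from 6.16 to 7.20 with a median of 6.49 (7 arrays). The lowest phenytoin array lay above the highest array of both other groups. On the deposited scale the medians were 71.6 in control, 296 under phenytoin and 64.1 under levetiracetam.

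The phenytoin group mean was 8.20 ± 0.40 (SD, n = 7) and the control mean 6.62 ± 0.38 (SD, n = 6). Ptgs2 rose by 1.57 on the log2 scale (SE 0.19), a 2.97-fold difference, with a limma adjusted p of 1.28e-05. Against levetiracetam the difference was 1.59 (SE 0.18, limma adjusted p = 4.47e-06). With the beta-actin ratio as a covariate the difference from control was 1.39 (limma adjusted p = 0.000927). Levetiracetam itself differed from control by -0.01, with a 95% interval of -0.41 to 0.38.

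Ptges3 was called in the same direction in phenytoin frontal cortex. It encodes the small co-chaperone p23, which works with Hsp90 and has also been described as cytosolic prostaglandin E synthase. Control arrays ran from 10.62 to 11.06 (median 10.80), phenytoin arrays from 11.01 to 11.23 (median 11.03) and levetiracetam arrays from 10.62 to 10.94 (median 10.78). The phenytoin and control groups overlapped through 1 control array, and the phenytoin and levetiracetam groups did not overlap.

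Ptges3 rose by 0.26 against control (SE 0.07, 1.20-fold, limma adjusted p = 0.0316) and by 0.30 against levetiracetam (SE 0.07, limma adjusted p = 0.00648). The call against control was the weaker of the pair. It was lost when any of control arrays 1, 2, 3, 5 and 6 or phenytoin arrays 3, 4 and 6 was left out, the adjusted p over all such runs being 0.00694 to 0.0976 in limma. It was also lost on the deposited scale, where the difference was 0.20 (limma adjusted p = 0.297), and with the beta-actin ratio as a covariate, where it was 0.25 (limma adjusted p = 0.127). Against levetiracetam the call was lost on the deposited scale too (0.21, limma adjusted p = 0.163) and with the beta-actin ratio as a covariate (0.29, limma adjusted p = 0.0507). That log2 ratio was higher by 0.31 under phenytoin than under levetiracetam (exact permutation test, adjusted p = 0.0455).

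Of the 6 member probe sets tested in frontal cortex, 2 rose under phenytoin against control and none fell, beside 6.39% of all probe sets called in either direction. Against levetiracetam 2 rose and none fell, beside 10.8%. Groups that did not overlap made up 3.29% of all probe sets for phenytoin against control and 4.21% against levetiracetam. The median difference of the 6 was 0.08 against control, beside -0.03 over all probe sets. These comparisons with phenytoin share the phenytoin arrays. For levetiracetam against control 0 of the 6 were called by limma, 0 had an unadjusted p under 0.05, and 0% of all probe sets were called.

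**Figure D1:**
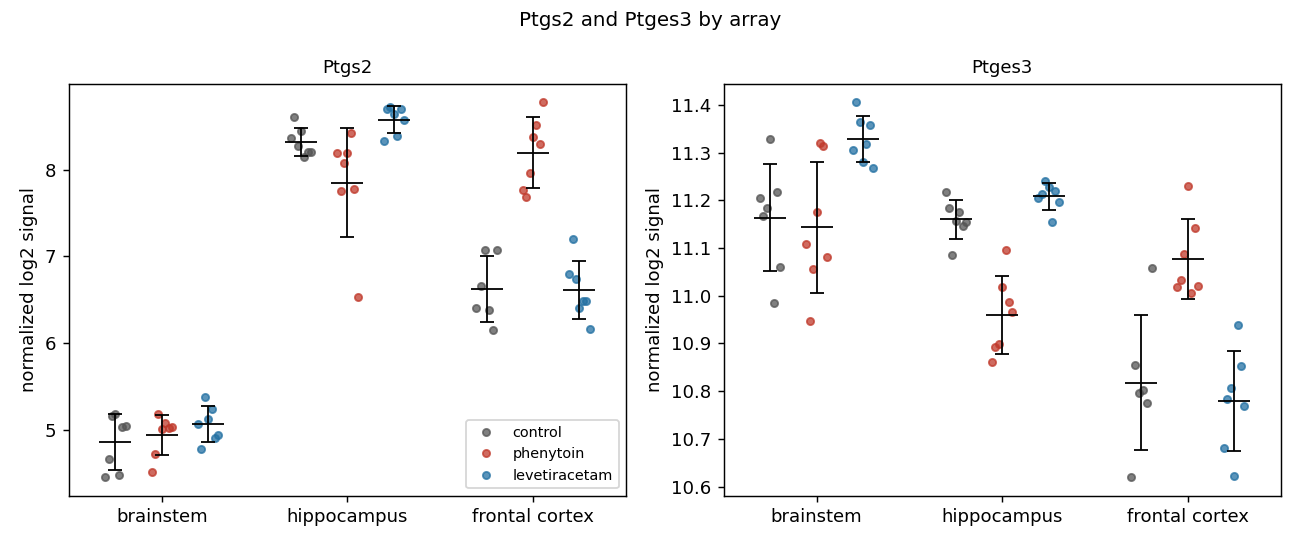
Normalized log2 signal of Ptgs2 (left) and Ptges3 (right) in each array, by region and treatment; points are arrays and the bars give the mean and SD of a group. The 7 phenytoin arrays of frontal cortex lie between 7.68 and 8.77 for Ptgs2, above all control and levetiracetam arrays of that region, and the phenytoin arrays of hippocampus lie low for Ptges3.

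In hippocampus the same probe sets stood on the other side of the control mean. Ptgs2 ran from 8.14 to 8.60 in control rats (median 8.27), from 6.53 to 8.43 under phenytoin (median 8.08) and from 8.33 to 8.72 under levetiracetam (median 8.635). The phenytoin range overlapped both others, and its lowest value came from array 7, described above. Phenytoin minus control was -0.47 (SE 0.18, limma adjusted p = 0.105), which did not pass the threshold. Without array 7 the difference was -0.25 (limma adjusted p = 0.108), and without array 5 it was -0.56 and called (limma adjusted p = 0.0411). With the Gapdh ratio as a covariate it was -0.12 (limma adjusted p = 0.841).

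Ptgs2 was lower under phenytoin than under levetiracetam in hippocampus, with a difference of -0.73 on the log2 scale (SE 0.18, limma adjusted p = 0.00918). The difference was -0.51 without array 7 (limma adjusted p = 0.00144). With the Gapdh ratio as a covariate it was -0.44 and no longer called (limma adjusted p = 0.16).

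Ptges3 in hippocampus was tightly grouped. Control arrays ran from 11.08 to 11.22 (median 11.16), phenytoin arrays from 10.86 to 11.10 (median 10.97) and levetiracetam arrays from 11.15 to 11.24 (median 11.21). Every phenytoin array lay below every levetiracetam array, and the phenytoin and control ranges met narrowly at 11.08 to 11.10. Ptges3 fell by 0.20 against control (SE 0.04, 1.15-fold, limma adjusted p = 0.0077). Against levetiracetam it fell by 0.25 (SE 0.04, limma adjusted p = 0.000707). With the Gapdh ratio as a covariate the difference from control was -0.17 and not called (limma adjusted p = 0.171), while that from levetiracetam was -0.22 and called (limma adjusted p = 0.0134).

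Among the 6 members tested in hippocampus, 1 fell and none rose under phenytoin against control, beside 9.24% of all probe sets called. Against levetiracetam 2 fell and none rose, beside 16.8% called and 3.67% with groups that did not overlap. For levetiracetam against control 0 members were called by limma, 0 had an unadjusted p under 0.05 and 0% of all probe sets were called. The median difference of the members for phenytoin against control was -0.05, beside 0.00275 over all probe sets.

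The test of whether the phenytoin difference varied among the 3 regions passed for 2 of the 6 members, beside 12.2% of all probe sets. Ptgs2 had F = 34.0 (limma adjusted p = 4.06e-08) and Ptges3 had F = 17.4 (limma adjusted p = 7.09e-05). Both were called in all 10 alternative settings run for this test and in all 41 runs that left out 1 array. For Ptgs2 the F and these calls are a description, since its brainstem signal lay below the filter. Ptgs2 entered this fit over all arrays through the other regions, so its brainstem difference is that of a dim signal. The count of 2 members includes Ptgs2. For levetiracetam the same test called 0 of the 6 members in limma (1 at an unadjusted p under 0.05), beside 0.0644% of all probe sets.

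Brainstem added little to either gene under phenytoin. Ptgs2 was among the dim probe sets there, with deposited medians of 17.4 under phenytoin and 20.1 under levetiracetam, and was not tested in the region's own fit. Fitted with no filter, phenytoin minus control was 0.08 (SE 0.14, limma adjusted p = 0.953). Ptges3 differed by -0.02 under phenytoin (95% interval -0.13 to 0.09). Under levetiracetam its arrays ran from 11.27 to 11.41, within the upper part of the control range of 10.99 to 11.33 and beyond it. The difference of 0.16 had a limma adjusted p of 0.0606 and was called in 3 of 12 alternative settings, among them the deposited scale (0.22, limma adjusted p = 0.0171), and without control array 4 (0.19, limma adjusted p = 0.0273).

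**Figure D2:**
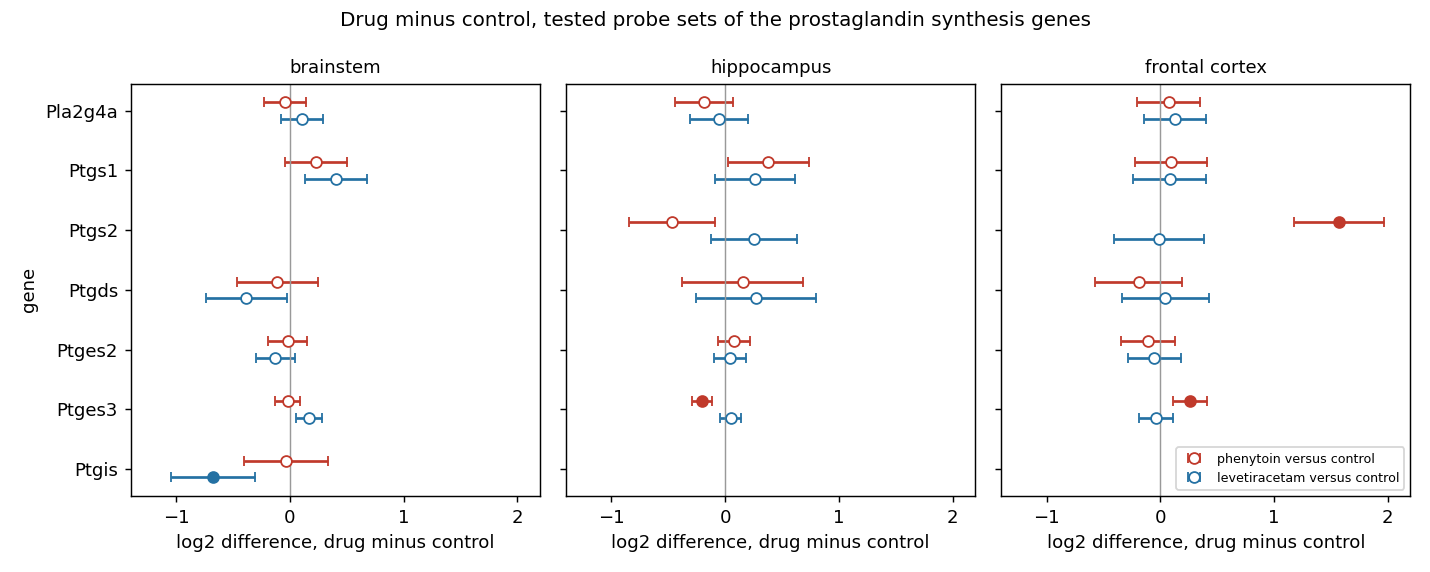
Log2 difference of each drug from control (horizontal axis) for the tested probe set of each gene, in 3 regions; bars are 95% intervals from limma, and filled points passed the threshold. Ptgs2 in frontal cortex lies at 1.57, Ptges3 is filled on opposite sides of 0 in hippocampus and frontal cortex, and Ptgis is filled under levetiracetam in brainstem.

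Ptgis, the prostacyclin synthase, best known from vessel walls, was the only member called under levetiracetam against control. In brainstem the 7 control arrays ran from 5.88 to 6.24 (median 5.99), the phenytoin arrays from 5.63 to 6.50 (median 5.91) and the levetiracetam arrays from 4.91 to 6.12 (median 5.07). Levetiracetam arrays 4 and 5 lay at 6.02 and 6.12, inside the control range, and the other 5 lay between 4.91 and 5.34, below every control array.

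Ptgis fell by 0.68 under levetiracetam (SE 0.18, 1.60-fold, limma adjusted p = 0.017). Phenytoin exceeded levetiracetam by 0.64 (SE 0.18, limma adjusted p = 0.0482), called in 4 of 10 alternative settings and in 4 of 14 runs that left out 1 array. Without arrays 1 and 2, whose labels name both drugs, the difference from control was -0.59 and no longer called (limma adjusted p = 0.0731), and that between the drugs was 0.56 (limma adjusted p = 0.149). These signals were low, with a deposited median of 50.7 in control and a deposited range of 15.3 to 56.8 under levetiracetam.

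The log2 of the summed signal of 16 leptomeningeal markers in brainstem ran from 9.95 to 11.68 in control (median 10.98). Under levetiracetam it ran from 10.15 to 11.15 (median 10.51). Of the 11 of these markers tested, 0 were called by limma and 0 had an unadjusted p under 0.05, with a median difference of -0.25 beside -0.000373 over all probe sets. For the 8 smooth muscle and pericyte markers the log2 of the summed signal had medians of 9.52 in control and 9.61 under levetiracetam. Of the 9 endothelial markers 1 fell, beside 9.24% of all probe sets called, and their median difference was -0.16. The part of these cells in the Ptgis result was not tested. In tissue RNA, fewer cells of a type and less RNA per cell cannot be told apart.

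Ptgs1 did not pass the threshold in any drug comparison over all arrays with the main processing. Its brighter probe set ran in brainstem from 4.88 to 5.64 in control (median 5.56) and from 5.67 to 5.96 under levetiracetam (median 5.87), and these groups did not overlap, as was so for 2.82% of all probe sets. The difference was 0.41 (SE 0.13, 95% interval 0.13 to 0.68, limma adjusted p = 0.0532), on the edge of the threshold, and without control array 4 it was 0.44 (limma adjusted p = 0.045). That was the only 1 of 14 runs without 1 array in which it was called. It was called in 3 of 11 alternative settings, and not without levetiracetam arrays 1 and 2. Phenytoin arrays ran from 5.28 to 6.09 and overlapped both groups. In hippocampus phenytoin minus control was 0.38 (95% interval 0.03 to 0.73, limma adjusted p = 0.159), and in frontal cortex 0.09 (95% interval -0.22 to 0.41). The second probe set was too dim to be tested. Over the 62 arrays the deviations of the 2 probe sets from their group means had a correlation of -0.05, so the dimmer one did not follow the brighter.

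In brainstem, 1 of 6 members fell under levetiracetam against control and none rose, beside 9.24% of all probe sets called. Phenytoin against control called 0 of 6 in limma, with 0 at an unadjusted p under 0.05, beside 0.0161% of all probe sets. Phenytoin against levetiracetam called 1, which was higher under phenytoin, beside 2.98%.

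Pla2g4a showed no drug difference past the threshold in any region. Its group medians ran from 5.84 in control frontal cortex to 6.83 in levetiracetam brainstem. The differences from control lay between -0.19 (phenytoin, hippocampus) and 0.13 (levetiracetam, frontal cortex). The widest of their 95% intervals, for frontal cortex, was -0.20 to 0.35 under phenytoin and -0.15 to 0.40 under levetiracetam.

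Ptgds is the lipocalin-type prostaglandin D synthase, a secreted protein made by leptomeninges, choroid plexus and oligodendrocytes. It was among the brightest probe sets on the arrays, brighter than 99.4% of them by its mean over all arrays. Neither drug was called. In brainstem the arrays ran from 11.94 to 13.09 in control (median 12.71), from 12.05 to 12.97 under phenytoin (median 12.11) and from 11.87 to 12.58 under levetiracetam (median 12.02). Levetiracetam minus control was -0.38 (95% interval -0.74 to -0.03, limma adjusted p = 0.172).

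Ptgds arrays within a group could differ by over 1 log2 unit. In levetiracetam hippocampus, array 5 read 12.19 against 10.12 to 10.77 in the other 6. The log2 of the summed leptomeningeal marker signal of that array was 11.23, against 9.33 to 10.10 in the others. Its smooth muscle and pericyte signal was 9.77 on the same scale, against 9.06 to 9.26. Its choroid plexus signal was 9.45, against 9.50 to 12.97 in the others, the lowest of the group. Over the 62 arrays the genes whose deviations from group means were most like those of Ptgds were Slc6a20a (r = 0.83), Vim (r = 0.80) and the collagen gene Col1a2 (r = 0.79).

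The prostaglandin E synthases other than Ptges3 moved little. Ptges2, a membrane-associated enzyme, had group medians from 8.20 to 8.43 in all 9 groups, and its drug differences from control ran from -0.13 to 0.08. The 95% interval of its phenytoin difference was -0.34 to 0.13 in frontal cortex and -0.07 to 0.22 in hippocampus. Ptges, the inducible microsomal enzyme, was below the filter with both probe sets in every region, with no deposited value above 49.1 on either. Fitted with no filter, its differences from control ran from -0.24 (levetiracetam, brainstem) to 0.54 (levetiracetam, frontal cortex, limma adjusted p = 0.944) over both probe sets and none was called. Between control regions 1 of its probe sets was higher in brainstem than in frontal cortex by 0.79 (limma adjusted p = 0.000263) and in hippocampus than in frontal cortex by 0.68 (limma adjusted p = 0.00241), while the other was not called. The deviations of these probe sets had a correlation of 0.07 over 62 arrays.

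**Figure D3:**
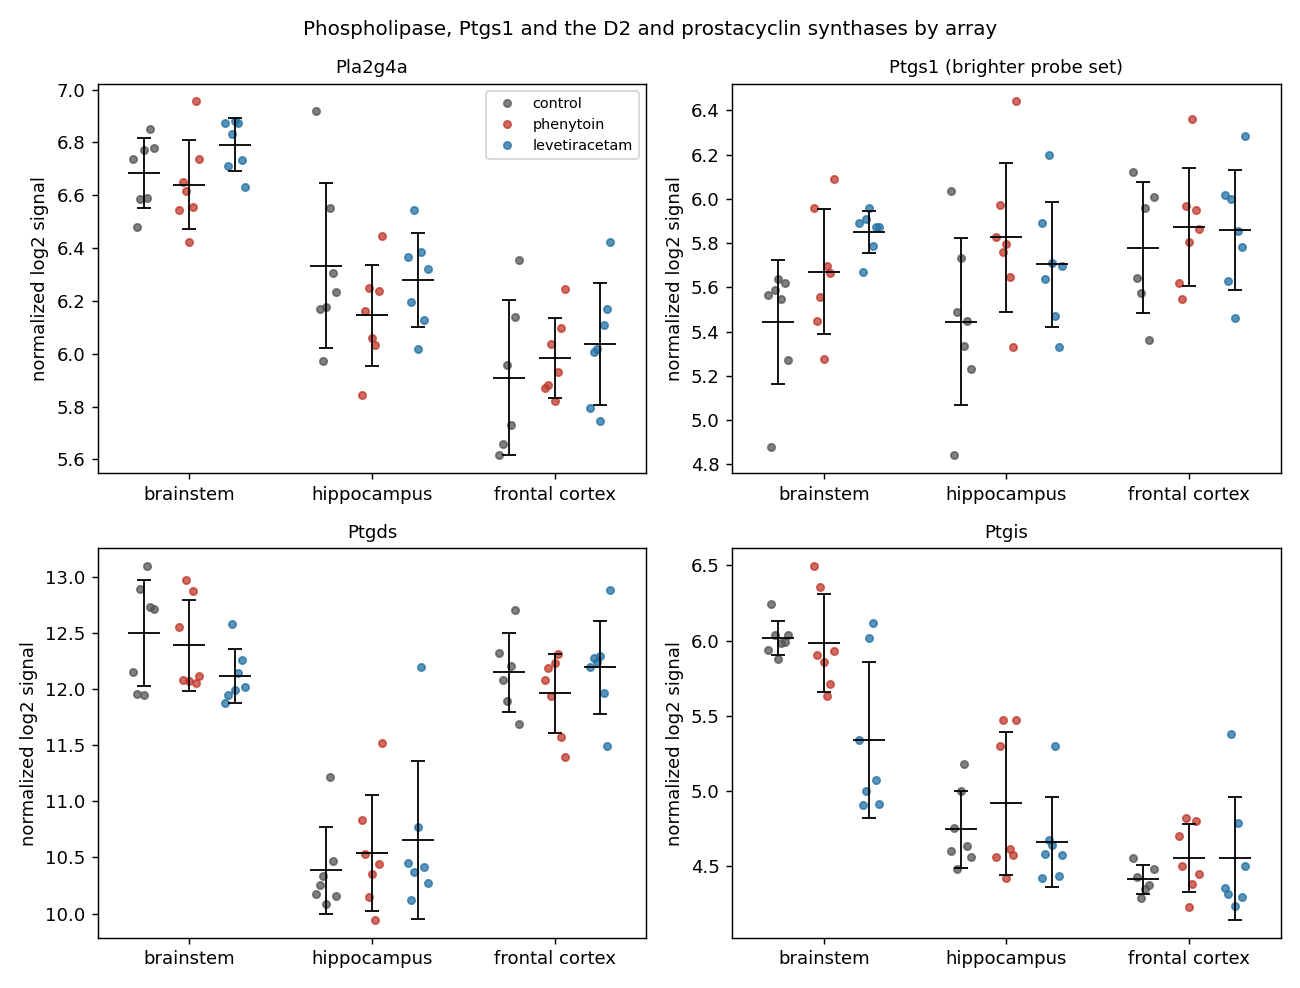
Normalized log2 signal of Pla2g4a, the brighter Ptgs1 probe set, Ptgds and Ptgis in each array, by region and treatment; points are arrays and the bars give the mean and SD of a group, and each panel has its own vertical scale. Ptgds is lowest in hippocampus in all treatments, with 1 levetiracetam array at 12.19, and 5 of 7 levetiracetam brainstem arrays lie low for Ptgis.

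The regions of control rats set the members apart in different orders. Frontal cortex arrays carry titles of another form than those of the other regions. Their control mean log2 spike-in signal was 10.08, against 10.46 in brainstem and 10.86 in hippocampus. In contrasts with frontal cortex, region and differences between sets of arrays cannot be told apart. Ptgs2 was highest in hippocampus (mean 8.32 ± 0.16, SD, n = 7), intermediate in frontal cortex (6.62 ± 0.38, SD, n = 6) and lowest in brainstem (4.86 ± 0.32, SD, n = 7). No 2 of these groups overlapped. Hippocampus and frontal cortex did not overlap for 20% of all probe sets. Brainstem did not overlap with hippocampus for 30.9% and with frontal cortex for 32.1%. Hippocampus exceeded frontal cortex by 1.69 (SE 0.18, 3.24-fold, limma adjusted p = 1.14e-11). Brainstem minus hippocampus was -3.46 and brainstem minus frontal cortex -1.76. The brainstem differences are a description with no test, since Ptgs2 was too dim to pass the filter in brainstem alone and entered the fit over all arrays through the other regions. They are also compressed by the added 16. The order of hippocampus above frontal cortex held in levetiracetam rats (1.97, limma adjusted p = 9.83e-15). In phenytoin rats hippocampus minus frontal cortex was -0.35 and not called (limma adjusted p = 0.108).

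Ptges3 was at 11.16 ± 0.11 (SD, n = 7) in control brainstem, 11.16 ± 0.04 (SD, n = 7) in hippocampus and 10.82 ± 0.14 (SD, n = 6) in frontal cortex. Brainstem and hippocampus did not differ beyond their spread (0.00379, limma adjusted p = 0.959). Hippocampus exceeded frontal cortex by 0.34 (SE 0.06, limma adjusted p = 8.7e-07). In phenytoin rats that difference was -0.12 (limma adjusted p = 0.0747).

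Ptgds followed another order. Control means were 12.50 ± 0.47 (SD, n = 7) in brainstem, 12.15 ± 0.35 (SD, n = 6) in frontal cortex and 10.38 ± 0.39 (SD, n = 7) in hippocampus. Brainstem and frontal cortex did not differ past the threshold (0.35, SE 0.23, limma adjusted p = 0.196). Hippocampus was lower than brainstem by 4.32-fold, or 2.11 in log2 (SE 0.22, limma adjusted p = 1.62e-12), and lower than frontal cortex by 3.40-fold (limma adjusted p = 3.79e-09). Of the 11 leptomeningeal markers tested, 8 were higher and 2 lower in brainstem than in hippocampus, beside 56.4% of all probe sets called. On the log2 scale their summed signal had control means of 10.81 in brainstem, 10.51 in frontal cortex and 9.68 in hippocampus. In the same order, oligodendrocyte and myelin markers had 15.11, 13.93 and 14.17. Choroid plexus markers had 11.64, 9.44 and 9.73. The part of these cells in the Ptgds order was not tested.

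Pla2g4a fell from brainstem (6.68 ± 0.13, SD, n = 7) through hippocampus (6.33 ± 0.31, SD, n = 7) to frontal cortex (5.91 ± 0.29, SD, n = 6). The steps were 0.35 (SE 0.11, limma adjusted p = 0.00632) and 0.42 (SE 0.12, limma adjusted p = 0.00227). Hippocampus minus frontal cortex was 0.16 in phenytoin rats (limma adjusted p = 0.245) and 0.24 in levetiracetam rats (limma adjusted p = 0.0652), and was not called in either. Ptgis was tested between regions only with no filter, where brainstem exceeded hippocampus by 1.27 and frontal cortex by 1.60, both called by limma. The Ptgis means were 6.02 ± 0.11 (SD, n = 7) in control brainstem, 4.75 ± 0.25 (SD, n = 7) in hippocampus and 4.41 ± 0.10 (SD, n = 6) in frontal cortex. Ptges2 and Ptgs1 had no region difference past the threshold. The nearest was Ptgs1 in brainstem against frontal cortex (-0.34, limma adjusted p = 0.0644), which was called with the replicate number as a block (-0.38, limma adjusted p = 0.0242).

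Over control rats, 3 of 6 members were called between brainstem and hippocampus (2 higher in brainstem, 1 lower), beside 56.4% of all probe sets, with 30.9% not overlapping. Between brainstem and frontal cortex 3 were called (2 higher in brainstem, 1 lower), beside 58.9%, with 32.1% not overlapping. Between hippocampus and frontal cortex 4 were called (3 higher in hippocampus, 1 lower), beside 46.1%, with 20% not overlapping. The brainstem counts include Ptgs2, whose brainstem differences the filter had fixed. These counts lie near the background.

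Of a list of 34 other genes of the pathway (phospholipases, receptors, transporters, reductases, degrading enzymes and leukotriene enzymes), 30 had a probe set of 1 symbol and 13 or 14 were bright enough to test in a region. The prostaglandin E receptors Ptger1, Ptger2, Ptger3 and Ptger4, the receptor genes Ptgfr and Tbxa2r, the transporter Slco2a1 and the degrading enzyme Hpgd all lay below the filter over all arrays. Under phenytoin in hippocampus 1 of 13 rose and none fell, beside 9.24% of all probe sets called, with a median difference of 0.05 beside 0.00275 over all probe sets. It was Ptgfrn, which encodes a membrane protein that inhibits the prostaglandin F2 alpha receptor (0.45, SE 0.13, limma adjusted p = 0.0309).

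In frontal cortex 0 of the 13 were called by limma under phenytoin against control (1 at an unadjusted p under 0.05), beside 6.39% of all probe sets. Their median difference was -0.10, beside -0.03. In brainstem 0 of 14 were called by limma under either drug (1 unadjusted for each). The shares of all probe sets there were 0.0161% for phenytoin and 9.24% for levetiracetam. Under levetiracetam 0 of 13 were called by limma in hippocampus and 0 of 13 in frontal cortex (1 unadjusted in each), beside 0% of all probe sets.

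The phenytoin difference varied by region for 2 of the 13, beside 12.2% of all probe sets. The prostaglandin exporter Abcc4 had F = 6.49 (limma adjusted p = 0.0296), with phenytoin differences of -0.18 in brainstem, 0.34 in hippocampus and -0.48 in frontal cortex, none of them called alone. Ptgfrn had F = 5.56 (limma adjusted p = 0.0497), with -0.15 in frontal cortex. Its hippocampus value was the call given above.

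Across control regions, 9 of the 13 were called between brainstem and hippocampus (8 higher in brainstem, 1 lower), 10 between brainstem and frontal cortex (7 higher, 3 lower) and 5 between hippocampus and frontal cortex (2 higher, 3 lower). The shares of all probe sets called were 56.4%, 58.9% and 46.1% in that order. Ptgfrn was highest in frontal cortex, with a difference of -2.14 (SE 0.14) for hippocampus minus frontal cortex and -1.61 (SE 0.14) for brainstem minus frontal cortex. Prxl2b, a prostamide and prostaglandin F synthase, was higher in brainstem than in frontal cortex by 1.08 (SE 0.13). Mgll, the lipase that releases arachidonic acid from the endocannabinoid 2-arachidonoylglycerol, had a difference of -0.95 (SE 0.21) for brainstem minus hippocampus. The leukotriene enzyme Lta4h was higher in brainstem than in hippocampus by 0.71 (SE 0.07). All of these were called by limma, the largest adjusted p being 8.34e-05.

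Ptgs2 is known as an activity-induced gene in forebrain neurons, so a list of 16 other activity-induced genes was set beside it. Of the 14 measured and tested in frontal cortex, 0 were called by limma under phenytoin against control, beside 6.39% of all probe sets. Of the 14, 1 had an unadjusted p under 0.05. That gene was Egr3 (0.43, SE 0.13, limma adjusted p = 0.0565). The median difference of the 14 was 0.00753, beside -0.03 over all probe sets. Fos stood at 0.23 (SE 0.37), Arc at -0.04 (SE 0.43), Bdnf at -0.14 (SE 0.12) and Nr4a1 at -0.16 (SE 0.36). In hippocampus 0 of 12 were called by limma (1 unadjusted), beside 9.24% of all probe sets, with a median of -0.08. In lists this short, counts of 0 lie near the background. The part of neuronal activity in the Ptgs2 difference was not tested.

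**Figure D4:**
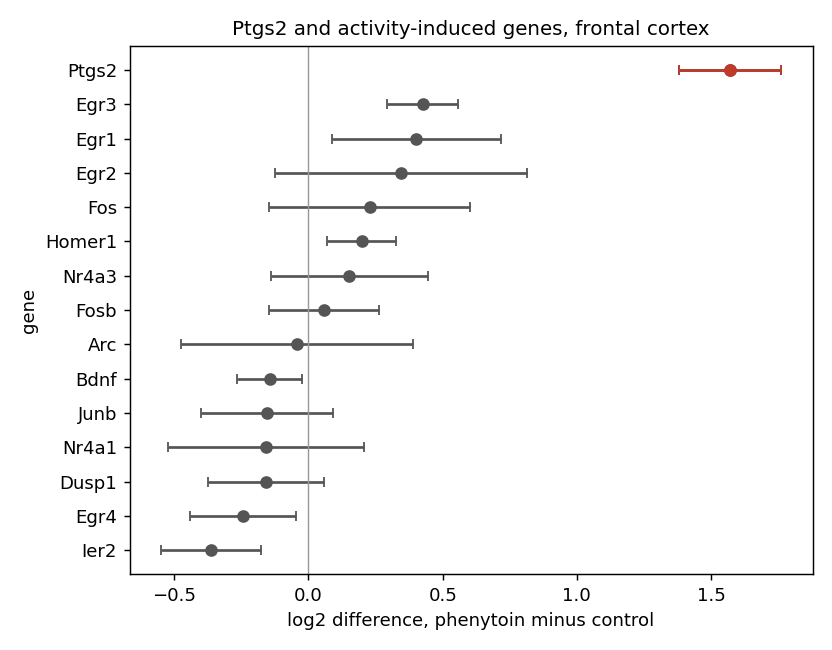
Log2 difference of phenytoin minus control in frontal cortex (horizontal axis) for Ptgs2 (red) and 14 other activity-induced genes (grey); bars are standard errors from limma. Ptgs2 lies at 1.57 and Egr3, the next, at 0.43.

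The genes whose array-to-array deviations were most like those of Ptgs2 over the 62 arrays were Scg2, which encodes a neuropeptide precursor of secretory granules (r = 0.67), Kctd6 (r = 0.66) and B4gat1 (r = 0.65). Over the 9 group means, which share the region differences, the most alike were LOC102547703 (r = 0.995), Dnajc6, the neuronal auxilin of clathrin uncoating (r = 0.994), and Tbl1xr1 (r = 0.992). For Ptges3 the deviations most alike were those of Spry2 (r = 0.75), Ikzf5 (r = 0.68) and the ribosomal protein gene Rpl21 (r = 0.68), and the group means most alike those of Rtn4 (r = 0.988), Smarca5 (r = 0.987) and Snx14 (r = 0.986). These correlations describe the arrays and carry no test.

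For Pla2g4a the deviations most alike were those of Rbpms2 (r = 0.62), Cyp2d4 (r = 0.61) and Tril (r = 0.58), and for Ptges2 those of Cd83 (r = 0.69), Cope (r = 0.67) and Stard3nl (r = 0.66). Ptgs1 had weaker likeness, with Chadl at r = 0.51, Fndc5 at r = 0.49 (61 arrays) and Camkk2 at r = 0.49. Over group means the first of each was Mtap for Pla2g4a (r = 0.989), Ankrd6 for Ptges2 (r = 0.955), Fbxw8 for Ptgs1 (r = 0.922) and Cplx1 for Ptgds (r = 0.998).

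Among the members themselves the deviations were loosely related. Over 62 arrays the highest correlation was between Pla2g4a and Ptgs1 (r = 0.37) and the lowest between Ptgs2 and Ptgds (r = -0.38). Ptgs2 and Ptges3, which shared the direction of their phenytoin differences, had r = 0.25.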

How the data were processed

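The deposited value table holds the authors' intensity for each probe set on a linear scale, 1 value per array. Which software summarised the probes is not given in the sources used here. Each array's trimmed mean (2% off each end) was 150.04 to 150.06, so the deposited values carry a common scaling. One array lacked 4799 values, none of a member. Array medians of the log2 values, computed from the deposited intensities after adding 16, ran from 5.645 to 6.323. The number of arrays limits the precision.

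The log2 values were quantile-normalized between arrays, the dimmest 40% of probe sets were left out, and limma 3.58.1 (R 4.3.3) was fitted within each region. One fit over the 9 groups gave the region contrasts and the tests of drug effects by region. P-values were adjusted by Benjamini-Hochberg over the 18626 probe sets kept, with a threshold of 0.05. Exact permutation tests used scipy 1.17.1 in Python 3.11.15. The scripts were tested on simulated data.

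Members and gene lists were chosen with earlier results of these data known. Named pathway genes are at most 6 per comparison by smallest p among those called. Genes most alike in pattern are the 3 with the highest Pearson correlation. Gene names come from the platform annotation, where 20826 probe sets have 1 symbol, 436 several and 9780 none. All 10 member probe sets matched RefSeq by gene ID, and 6 of 8 members had an upstream sequence. Runs that left out 1 array kept the normalization and the filter.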

Additional observations from a re-analysis of the deposited data

Results flagged for a closer look

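Within the 90 groups of member values, 8 held an array whose gap to the nearest of the others passed Dixon's critical value, and chance marks about 1 in 20 groups. Ptgs2 in phenytoin hippocampus array 7 read 6.53, against 7.76 for the next lowest. Ptgds read 11.21 in control hippocampus array 5, against 10.47 for the next highest, and 12.19 in levetiracetam hippocampus array 5, against 10.77. Ptgis in that same levetiracetam array read 5.30, against 4.67. Ptges2 in control frontal cortex array 7 read 8.63, against 8.38. The remaining 3 lay among dim probe sets that were not tested. The dimmer Ptgs1 probe set read 4.16 in levetiracetam hippocampus array 6, against 4.75. The Ptges probe sets read 4.05 in control brainstem array 2, against 5.05, and 4.11 in phenytoin frontal cortex array 2, against 5.26.

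The phenytoin difference varied among the regions for Ptgs2 (limma adjusted p = 4.06e-08) and Ptges3 (limma adjusted p = 7.09e-05), with a positive value in frontal cortex and a negative one in hippocampus for both. For Ptgs2 this is a description, since its brainstem signal lay below the filter. In control hippocampus array 5, where Ptgds was high, the log2 of the summed leptomeningeal signal was 9.998, against 9.33 to 9.76 in the other 6 arrays. That array was also highest for oligodendrocyte and myelin markers, at 14.39 against 14.00 to 14.25. It was highest for choroid plexus markers (10.04 against 9.33 to 9.95) and for microglia and macrophage markers (11.83 against 11.40 to 11.62). The part of these cells in the Ptgds value was not tested.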

How the results depend on the processing

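Ptgs2 in frontal cortex was called under phenytoin against control in all 11 alternative settings and all 13 runs without 1 array. The number of member probe sets called moved elsewhere. For phenytoin against control in frontal cortex it fell from 2 to 1 on the deposited scale, with the beta-actin covariate, with no filter and with the replicate block, and was 1 to 2 without single arrays. In hippocampus it went from 1 to 0 with the Gapdh covariate, and was 1 to 2 without single arrays. For levetiracetam against control in brainstem it went from 1 to 3 on the deposited scale and with array weights, to 2 with the replicate block and the Gapdh covariate, and to 0 with all 9 groups in 1 fit and without levetiracetam arrays 1 and 2. The count was 1 to 3 without single arrays, 3 being without control array 4. Ptgis lay below the filter over all arrays, so the fit of all 9 groups did not test it, here or in the next comparison. For phenytoin against levetiracetam in brainstem it went from 1 to 0 on the deposited scale, with a pseudocount of 64, no filter, all 9 groups in 1 fit, the replicate block, the beta-actin covariate and without levetiracetam arrays 1 and 2, and to 2 with array weights, and was 0 to 2 without single arrays. The same comparison went from 2 to 1 in frontal cortex on the deposited scale and with the beta-actin covariate, and from 2 to 1 in hippocampus with the Gapdh covariate. Between control regions, brainstem against frontal cortex went from 3 to 5 with no filter. Hippocampus against frontal cortex went from 4 to 1 in phenytoin rats, where Ptgs2 (-0.35) and Ptges3 (-0.12) changed sign. Beyond the settings named, the cause was not tested.

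Over all probe sets, calls for phenytoin against control went from 1721 to between 17 (Gapdh covariate) and 2663 (array weights) in hippocampus, from 1191 to between 644 (beta-actin covariate) and 2959 (array weights) in frontal cortex, and from 3 to between 0 and 8 in brainstem. For phenytoin against levetiracetam they went from 3123 to between 956 and 4571 in hippocampus, from 2011 to between 1604 and 3236 in frontal cortex, and from 555 to between 156 and 1345 in brainstem. For levetiracetam against control they went from 1721 to between 858 and 2239 in brainstem and from 0 to 16 in hippocampus (array weights). Tests by region went from 2266 to between 1317 and 4241 for phenytoin, and from 12 to between 2 and 16 for levetiracetam.

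Same-numbered arrays across treatments of a region had a mean correlation of deviations of -0.0185, with 9 of 61 pairs over 0.1. Across regions of a treatment it was 0.119, with 36 of 61 pairs over 0.1, against -0.0196 and 13 of 366 for arrays of different numbers, a hint that numbers tie regions together, which the labels do not state. With the number within a treatment as a replicate block, Ptgs1 was called in brainstem against frontal cortex (-0.38, limma adjusted p = 0.0242) and in hippocampus against frontal cortex (-0.37, limma adjusted p = 0.0308). No other member's call changed in the region contrasts or the tests by region, where Ptgs2 had F = 32.8 and Ptges3 F = 16.1. Dim probe sets (Ptges, the second Ptgs1 probe set, Ptgs2 in brainstem, Ptgis outside brainstem) were not tested in the filtered fits of single regions.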
